A study of Mus musculus with 6 samples.

Results

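The red cell membrane skeleton was measured here through 8 genes: Sptb, Ank1, Slc4a1, Epb41, Epb42, Add2, Tmod1 and Dmtn. They were chosen by name, for the proteins they encode, and each identifier of the count table was given a symbol with the GENCODE M21 annotation of the mouse genome. All 8 were found among the 55487 genes of the table, each under 1 identifier. The RNA came from megakaryocyte-erythroid progenitors (MEPs), the marrow precursors shared by red cells and platelet-forming megakaryocytes, and was sequenced in bulk after selection of polyadenylated RNA. All animals were wild-type C57BL/6 mice aged 8 weeks. The control group had 3 libraries, and the fasted group had 3 libraries from mice left without food for 6 h. The design asked what fasting does to the making of red cells at the level of RNA. The labels name no sex, batch or number of animals per library, and nothing in them says that the 3 libraries of a group came from separate animals, so p-values measure only the spread between these libraries.

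The membrane of a red cell is held by a net of spectrin chains under the lipid bilayer. Ankyrin ties this net to the anion exchanger band 3, while short actin filaments, protein 4.1, adducin, dematin and tropomodulin join the spectrin ends into nodes. Inherited loss of several of these proteins makes red cells round, stiff and short-lived, and their genes become strongly active late in erythroid maturation, after the progenitor stage sampled here.

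Depth and background differed between the groups. Control libraries held 22445970 to 30246110 counts in genes and fasted libraries 12797144 to 18225191, a mean of 26.3 M ± 3.90 against 15.3 M ± 2.74 (SD, n = 3 each). Odorant and vomeronasal receptor genes, which blood cells are not known to use, carried counts in every library. They served as a measure of background, as their summed counts over their summed exonic length. On the RPKM scale (CPM, or counts scaled to equal library size, per kilobase of exon, with library sizes set by TMM, a trimmed mean of gene ratios) this background was 0.561 ± 0.155 in control and 0.842 ± 0.0690 in fasted libraries (SD, n = 3 each). The expression filter kept 36508 genes, of which 10637 had a mean of at least 5 times the background. Among these are 7 of 8 listed markers of erythroid and megakaryocyte progenitors (Kit, Gata1, Gata2, Klf1, Epor, Itga2b and Car1, with Zfpm1 at 4.43 times) and 12 of 12 markers of haemoglobin-making cells. All 13 of 13 granulocyte and monocyte markers also reached it, with a summed level of 4750 to 18379 CPM in control and 1474 to 3580 CPM in fasted libraries. In control libraries 2 and 3 and in fasted library 1 this sum was above that of the 8 progenitor markers.

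The 8 genes were measured at low levels in these libraries. Mean levels over the 6 libraries ran from 11.6 RPKM ± 4.06 for Add2 through 8.79 ± 1.57 for Epb41, 4.76 ± 1.63 for Sptb, 4.04 ± 1.03 for Ank1, 3.11 ± 0.628 for Epb42, 2.88 ± 0.480 for Slc4a1 and 2.55 ± 0.633 for Dmtn to 1.26 ± 0.261 for Tmod1 (SD, n = 6). In this order the library ranges of neighbours overlapped except between Epb41 and Sptb and between Dmtn and Tmod1. Within libraries, Add2 was above Epb41 in 5 of 6 and Epb42 above Slc4a1 in 4 of 6. Taken as a whole, the members held between 0.0287% and 0.0652% of all counts of a library.

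**Figure D1:**
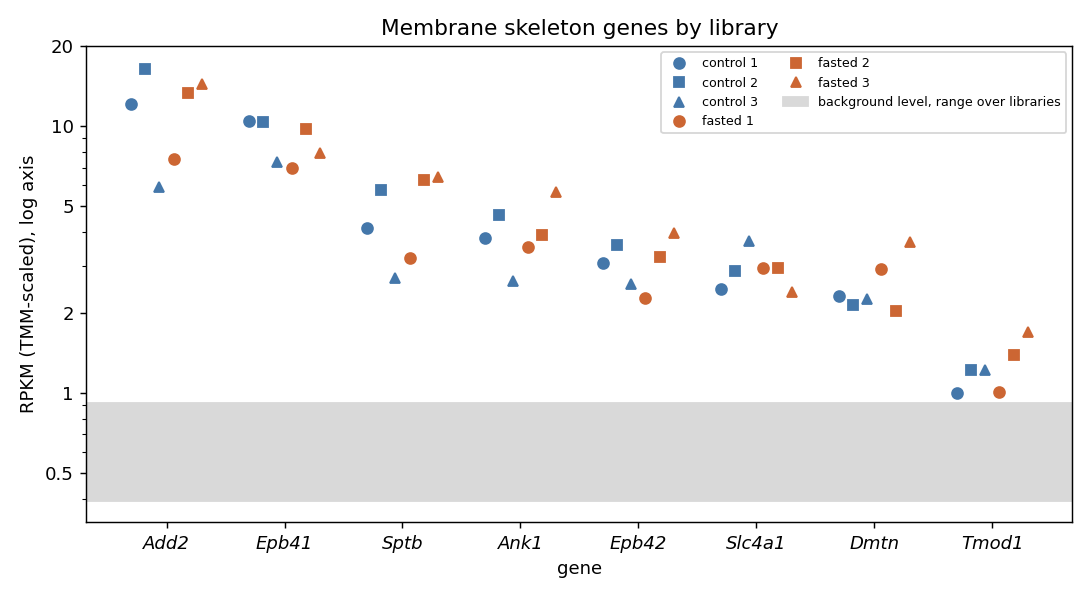
Level of the 8 membrane skeleton genes in each library, as TMM-scaled RPKM on a log axis, with genes in the order of their mean. Blue symbols are control and orange symbols fasted libraries, and the grey band spans the background level of the 6 libraries, from 0.394 to 0.915 RPKM; Tmod1 lies just above the band, and for each gene the colours overlap.

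Background therefore reached unequal depths into the members. By the mean over all libraries, Add2 (17.3 times the background), Epb41 (13.1), Sptb (7.0) and Ank1 (5.92) were at or above 5 times, and Epb42 (4.6), Slc4a1 (4.22), Dmtn (3.68) and Tmod1 (1.84) below it. Even Add2 had a level above that of only 55.8% of the 10637 genes that reached 5 times the background, and Ank1 above that of 9.92%. Among all 36508 genes tested, most of them near the background, Add2 was above 87.1%, Epb41 above 84.2%, Sptb above 76.2%, Ank1 above 73.8% and Tmod1, the lowest member, above 39.3%. If the background rate held over their exons, it made up 6.67%, 8.49% and 17.4% of the members' summed counts in libraries 1 to 3 of the control group, and 20.7%, 13.2% and 11.7% in those of the fasted group. Fasted library 1 and control library 3 thus had the largest background share.

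None of the 8 genes passed the test of fasted against control libraries. In edgeR's quasi-likelihood test over all 36508 genes, 0 of 8 had a Benjamini-Hochberg adjusted p under 0.05, where 4.97% of all genes did, and 0 of 8 had an unadjusted p under 0.05, where 28.6% did. DESeq2 called 0 of 8 where it called 15.5% of all genes, and 0 of 8 had an unadjusted p under 0.05 in DESeq2 where 25.9% did. DESeq2 gave no adjusted p to 18403 of the 36508 genes, though it gave one to each of the 8. Genes without one count as not called in the 15.5%, so the share among genes given an adjusted p was higher. The ranges of the groups overlapped for all 8, so that 0 of 8 were separated by their TMM-scaled CPM against 34.9% of all genes tested. In bulk RNA, fewer cells of a type and less RNA per cell cannot be told apart, and this holds for each value that follows.

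Spectrin and its anchor come first. Sptb (ENSMUSG00000021061.15; GRCm38 chromosome 12, 76580488 to 76710547, minus strand; 12147 bases of merged exon) encodes the erythroid beta chain of spectrin. It had 50.5, 70.0 and 32.6 CPM in control libraries 1, 2 and 3 and 39.0, 76.1 and 78.7 CPM in fasted libraries 1, 2 and 3, from 607 to 1567 counts. Control library 3 and fasted library 1 were low and the other fasted libraries were above every control library. The mean was 51.0 CPM ± 18.7 in control and 64.6 ± 22.2 in fasted libraries (SD, n = 3 each), so fasted over control stood at 0.34 on the log2 scale (SE 0.29; edgeR adjusted p 0.436).

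Ank1 (ENSMUSG00000031543.18; chromosome 8, 22974844 to 23150497, plus strand; 13527 bases) encodes the red cell ankyrin, which links spectrin to band 3. Its level was 51.4, 63.1 and 35.7 CPM in control and 47.8, 53.0 and 76.7 CPM in fasted libraries, from 744 to 1465 counts. As for Sptb, control library 3 was the lowest and fasted library 3 the highest of the 6. Fasted over control came to a log2 fold change of 0.24 (SE 0.25; adjusted p 0.523, edgeR). An antisense gene model, Gm15816, covers 6.37% of the Ank1 exons, and whether counting used strand is not given in the sources used here.

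The membrane anchor and its partner were near the background. Slc4a1 (ENSMUSG00000006574.15; chromosome 11, 102348824 to 102366203, minus strand; 4891 bases) encodes band 3, the chloride and bicarbonate exchanger and the most abundant protein of the red cell membrane. It had 12, 14.0 and 18.2 CPM in control and 14.4, 14.3 and 11.7 CPM in fasted libraries, from 223 to 382 counts. Control library 3, the lowest for Ank1, was the highest of all 6 for Slc4a1. For band 3 the log2 fold change came to -0.13 (SE 0.27; adjusted p 0.757, edgeR). Measured against the background of its own library, Slc4a1 stood at 6.21, 4.86 and 5.32 times in control and 3.22, 3.51 and 3.07 times in fasted libraries. The divisor itself was higher in the fasted libraries, and the CPM of Slc4a1 overlapped between the groups.

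Epb42 (ENSMUSG00000023216.13; chromosome 2, 121017891 to 121037072, minus strand; 5417 bases) encodes protein 4.2, which binds band 3 and ankyrin and resembles transglutaminases without their activity. Its level was 16.6, 19.4 and 13.9 CPM in control and 12.3, 17.5 and 21.5 CPM in fasted libraries, from 192 to 434 counts. Fasted libraries held both the lowest and the highest value. The resulting log2 fold change, 0.04 (SE 0.27), was smaller than its error (adjusted p 0.921, edgeR).

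At the nodes of the net, Epb41 (ENSMUSG00000028906.17; chromosome 4, 131923413 to 132075321, minus strand) encodes protein 4.1, which strengthens the bond of spectrin to actin. Its exonic length in the table was 16386 bases and that of M21, under another gene version, 15942, so its per-length level rests on the deposited length. It had 171, 169.9 and 120.2 CPM in control and 114, 159.6 and 130.3 CPM in fasted libraries, from 1771 to 3893 counts, the most of the 8 genes. Control library 3 and fasted library 1 were again the lowest. Epb41 had the lowest log2 fold change of the 8, -0.19 (SE 0.23; adjusted p 0.582, edgeR).

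Add2 (ENSMUSG00000030000.10; chromosome 6, 86028681 to 86124409, plus strand; 10139 bases) encodes beta adducin, which caps actin filaments and recruits spectrin to them. It had 123, 166 and 60.2 CPM in control and 76.4, 135 and 146 CPM in fasted libraries, from 1188 to 3713 counts. The span within each group exceeded the difference between the groups: the means were 116 CPM ± 53.1 and 119 ± 37.5 (SD, n = 3 each). Fasted over control was 0.04 on the log2 scale (SE 0.32; adjusted p 0.946, edgeR).

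Tmod1 (ENSMUSG00000028328.13; chromosome 4, 46038935 to 46116032, plus strand; 3946 bases) encodes tropomodulin, the cap of the slow-growing actin end. It had 3.95, 4.82 and 4.82 CPM in control and 3.99, 5.49 and 6.70 CPM in fasted libraries, from 62 to 128 counts, and stood at 1.10 to 2.54 times the background of its library. Of its exons 1287 bases, or 32.6%, overlap Tstd2 on the other strand, and without a known strand setting the reads of the pair cannot be told apart. Its log2 fold change of 0.25 had the widest error of the 8 (SE 0.33; adjusted p 0.608, edgeR).

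Dmtn (ENSMUSG00000022099.17; chromosome 14, 70601263 to 70636048, minus strand; 9804 bases) encodes dematin, which bundles actin and ties the nodes to the membrane. It had 22.6, 20.9 and 22.0 CPM in control and 28.5, 19.8 and 36.0 CPM in fasted libraries, from 379 to 688 counts. The control libraries lay close together (21.8 CPM ± 0.839, SD, n = 3), and fasted library 2 was below them while the other fasted libraries were above. The mean of the fasted libraries was 28.1 CPM ± 8.10 (SD, n = 3), and the log2 fold change, 0.37 (SE 0.26; adjusted p 0.336, edgeR), was the largest of the 8.

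Add2 and Sptb varied most between libraries. Their log2 level spanned 1.45 and 1.26 from the lowest to the highest library, against 1.09 for Ank1 and 0.583 for Epb41. Both genes have a promoter window in RefSeq (build GRCm38.p6, 250 bases before the annotated start) that no annotated exon overlaps, so their letters are shown, each written 5′ to 3′ on the strand of the gene. Capitals mark matches on either strand to CCNCNCCC, the motif bound by Klf1 and other Krüppel-like factors, where matches may overlap each other. The Add2 window is chr6:86028431-86028680 on the plus strand and the Sptb window chr12:76710548-76710797 on the minus strand.
Add2: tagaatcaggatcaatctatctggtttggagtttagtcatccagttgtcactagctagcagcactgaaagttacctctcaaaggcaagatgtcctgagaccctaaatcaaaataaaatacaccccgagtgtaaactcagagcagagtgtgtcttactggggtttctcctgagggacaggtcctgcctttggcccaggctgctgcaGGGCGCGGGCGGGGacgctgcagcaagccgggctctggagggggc
Sptb: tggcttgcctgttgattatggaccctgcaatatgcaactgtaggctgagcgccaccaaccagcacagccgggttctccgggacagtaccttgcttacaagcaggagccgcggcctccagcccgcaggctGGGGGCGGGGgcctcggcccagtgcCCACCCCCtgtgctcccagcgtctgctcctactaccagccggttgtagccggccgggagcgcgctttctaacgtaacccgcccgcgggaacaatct
The Add2 window held 2 matches and the Sptb window 3, and neither held AGATAA or TGATAA, forms of the site of GATA factors. CCNCNCCC occurred in 45.9% of the 32851 windows of this length and AGATAA or TGATAA in 16.6%. Windows were found for 5 of the 8 members (Sptb, Epb41, Epb42, Add2 and Tmod1). A match describes these letters only, and no binding was measured in these cells.

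Several members shared a pattern over libraries that did not follow the groups. Centred on the 6 libraries, the mean log2 level of the 8 genes was -0.04, 0.18 and -0.31 in libraries 1 to 3 of the control group and -0.24, 0.11 and 0.30 in those of the fasted group. Control library 3 and fasted library 1 were the lowest pair for Add2, Sptb, Ank1, Epb41 and Epb42. Slc4a1 stood apart, at 0.37 in control library 3 and -0.25 in fasted library 3. Dmtn was above its mean in fasted libraries 1 and 3 only, and Tmod1 was lowest in control library 1.

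**Figure D2:**
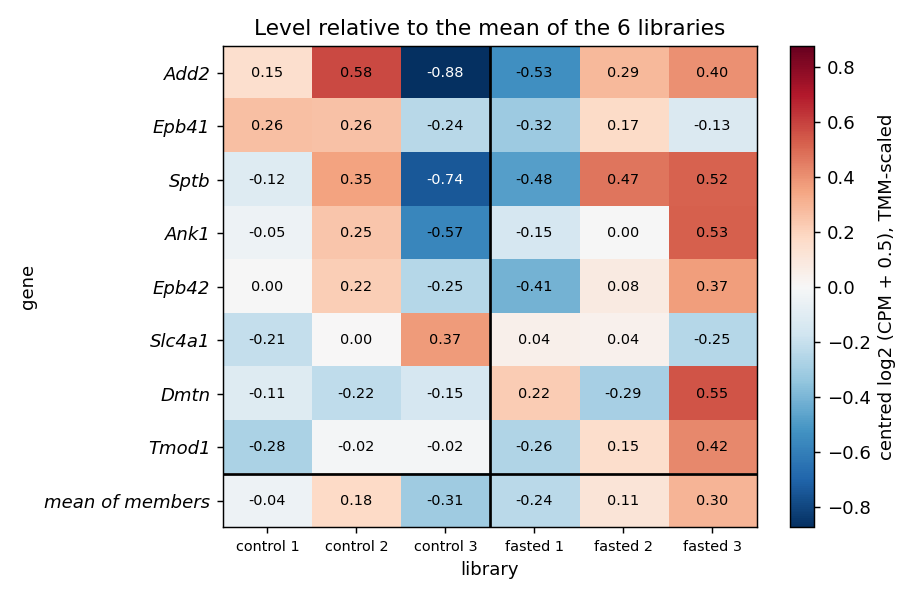
Level of each membrane skeleton gene in each library relative to its mean over the 6 libraries, as centred log2 of TMM-scaled CPM plus 0.5, with the mean of the 8 genes in the last row. Red cells are above and blue cells below the mean; Add2 at -0.88 and Sptb at -0.74 in control library 3 are the lowest cells, and Slc4a1 has its highest value, 0.37, in that library.

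Sums of marker lists are given for the same libraries. The summed level of the 8 members was 451, 528 and 308 CPM in control and 336, 481 and 508 CPM in fasted libraries. Control library 3, which had the lowest sum of the members, had the highest sum of the granulocyte and monocyte markers, at 18379 CPM against 4750 and 13433 CPM in control libraries 1 and 2. The 8 progenitor markers summed to 5119, 4101 and 2187 CPM in control and 2448, 3050 and 3209 CPM in fasted libraries, again lowest in control library 3 and next in fasted library 1. The 12 markers of haemoglobin-making cells summed to 482, 772 and 552 CPM in control and 465, 616 and 501 CPM in fasted libraries. Granulocyte and monocyte markers summed to 3580, 2784 and 1474 CPM in the fasted libraries, so their groups did not overlap. In the TMM fit 2 of 13 passed as lower, and all 13 values were below 0 (median log2 fold change -1.04). With library totals all 13 stayed below 0 (median -0.63), and 0 passed in either direction. Megakaryocyte and platelet markers summed to 717, 569 and 580 CPM in the control and 395, 436 and 226 CPM in the fasted libraries, so the groups did not overlap, and 4 of 11 tested passed as lower in the TMM fit. Stem and multipotent progenitor markers summed to 1018, 764 and 901 CPM in the control and 666, 707 and 332 CPM in the fasted libraries. The groups again did not overlap on this TMM scale, and 2 of 8 passed as lower in the TMM fit. B and T lymphocyte markers summed to 98.7, 148 and 114 CPM in the control and 199, 154 and 91.5 CPM in the fasted libraries, and 0 of 11 passed. Of all genes tested, 3.82% passed as lower and 1.15% as higher in the TMM fit. With library totals, 1 of 11 megakaryocyte and platelet markers passed as higher and 1 as lower. Of the 8 stem and multipotent progenitor markers 1 then passed as higher and 0 as lower, with a median log2 fold change of 0.17. Of the 11 lymphocyte markers 2 then passed as higher. Under that scaling 11.6% of all genes passed as higher and 0.819% as lower. The part of the cell mixture in the members' levels was not tested.

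Of 8505 named genes at or above 5 times the background, those with the library pattern most like the mean of the 8 members were Pla2g12a, Cd82, Camta2, March8 and Ndst2. Their root mean square difference from that mean, over 6 libraries on the log2 scale, was 0.075, 0.080, 0.096, 0.097 and 0.097. The members themselves differed from it by 0.085 (Epb42) to 0.389 (Slc4a1). Likeness over 6 libraries is a description of these values.

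The position of the members relative to other genes depended on which genes they were set beside. The median log2 fold change was 0.14 over the 8 members, with 6 values above 0 and 2 below, against 0.32 over all 36508 genes, -0.50 over the 10637 genes that reached 5 times the background and 0.53 over the 25871 genes below it. The 4 members at or above 5 times the background (Add2, Epb41, Sptb and Ank1) had a median of 0.14 in a stratum centred on -0.50. The 4 below it (Epb42, Slc4a1, Dmtn and Tmod1) had a median of 0.15 in a stratum centred on 0.53. With reference to the median of the higher stratum, the 8 genes' values ran from 0.31 for Epb41 to 0.87 for Dmtn, and their median minus that of the stratum was 0.64.

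The scaling of libraries therefore set the sign for several members. Scaling by library totals shifted the median over all genes from 0.32 to 0.80 and that of the 10637 genes to -0.0078. The members then had values above 0 in 8 of 8, with a median of 0.64. Under library totals Ank1 (log2 fold change 0.75, edgeR adjusted p 0.0446) and Dmtn (0.88, edgeR adjusted p 0.0420) passed as higher in fasted libraries, 2 of 8 where 11.6% of all genes passed as higher. Groups were then separated for 3 of 8 (Ank1, Tmod1 and Dmtn), against 43.5% of all genes. With TMM factors taken from the 10637 genes, the same 2 genes passed, Ank1 at 0.78 (edgeR adjusted p 0.0393) and Dmtn at 0.90 (edgeR adjusted p 0.0367), beside 13.7% of all genes passing as higher.

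When only the 10637 genes were scaled and tested, 0 of the 4 members in that set passed, as did 0% of all its genes. The edgeR log2 fold changes were 0.87 for Sptb (SE 0.33, adjusted p 0.212), 0.78 for Ank1 (SE 0.26, adjusted p 0.17), 0.33 for Epb41 (SE 0.14, adjusted p 0.245) and 0.58 for Add2 (SE 0.37, adjusted p 0.420). Of the 4, 3 had an unadjusted p under 0.05, where 19.8% of the genes tested did. The median of the 4 was 0.68, against 0.02 over all genes of that fit. With the background rate subtracted from every gene, the values were 0.58 for Sptb, 0.46 for Ank1, 0.04 for Epb41, 0.30 for Add2, 0.57 for Dmtn, 0.17 for Epb42, 0.10 for Tmod1 and -0.10 for Slc4a1. In that fit 0 of 8 passed, as did 0% of all 24892 genes tested, so the count says nothing particular about the members.

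**Figure D3:**
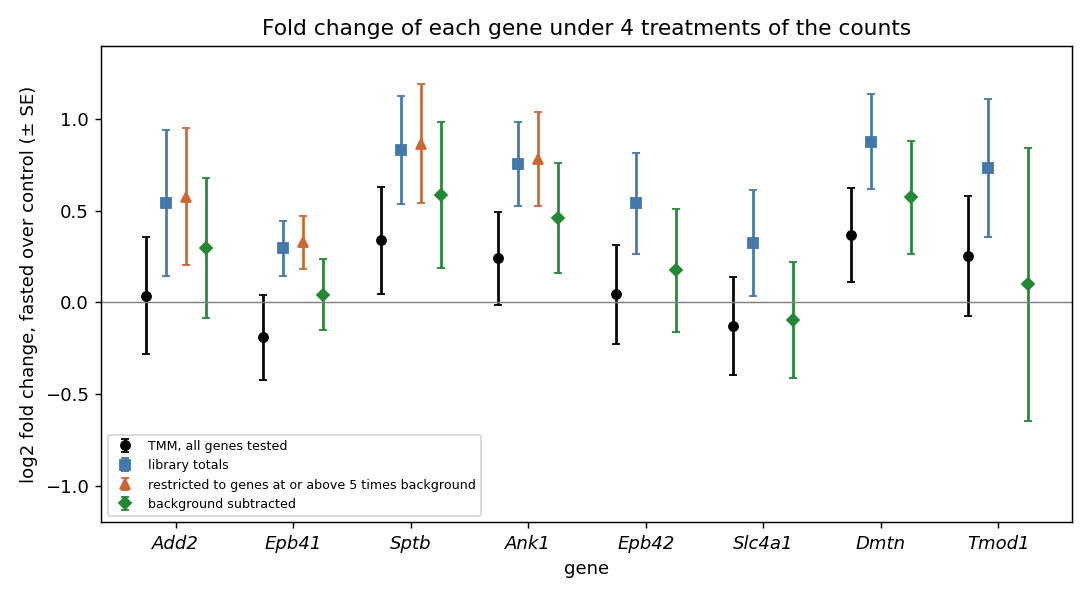
Log2 fold change of fasted over control libraries for each membrane skeleton gene, with bars of 1 SE, under TMM over all genes tested (black), library totals alone (blue), the fit of only those genes that reached 5 times the background (orange, 4 genes only) and after subtraction of the background (green). Black points lie between -0.19 and 0.37 and blue points are all above 0, with Sptb and Dmtn the highest pair of the black, blue and green points.

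Ratios of 2 genes within a library do not depend on the scaling. Of 8 ratios computed, 7 are given here, which set the members beside their partners or their relatives found in other cells. The log2 ratio of Epb42 to Slc4a1 was 0.32, 0.32 and -0.54 in the control and -0.37, 0.14 and 0.73 in the fasted libraries, a difference of 0.13 (p = 0.9, exact permutation test).

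The adducin and spectrin relatives were closer in level to the members than Tmod3 was to Tmod1. Add1 encodes the alpha adducin found in most cells, and the log2 ratio of Add2 to Add1 was -1.21, -0.49 and -1.47 in the control and -1.04, -0.49 and -0.01 in the fasted libraries. The difference was 0.54 (p = 0.2, exact permutation test). For Sptb against Sptbn1, the beta spectrin of most other cells, the log2 ratio was -0.83, -0.27 and -1.43 in the control and -0.59, 0.74 and 1.22 in the fasted libraries. Sptb was thus above Sptbn1 per kilobase in fasted libraries 2 and 3 only, and the difference of 1.30 gave p = 0.2 (exact permutation test). Sptbn1 had 7.40, 6.93 and 7.26 RPKM in control and 4.83, 3.76 and 2.77 RPKM in fasted libraries.

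Tmod1 to Tmod3, the tropomodulin of many cell types, was the only ratio of the 7 whose groups were separated. It was -4.62, -4.01 and -4.00 in the control and -3.67, -3.55 and -2.43 in the fasted libraries on the log2 scale, a difference of 0.99 (0.60 to 1.22 with 1 library left out). This gave p = 0.1 in the exact permutation test, the smallest that 3 against 3 libraries allow, and 0.533 after adjustment over the 8 ratios. With the background subtracted from both genes the difference was 0.19, and Tmod1 stood at 1.84 times the background. On the TMM scale Tmod3 had 24.7, 19.7 and 19.6 RPKM in control and 13.0, 16.3 and 9.20 RPKM in fasted libraries. The groups of Tmod3 thus did not overlap on that scale, while those of Tmod1 did. Ank1 to Ank3 differed by -0.50 (p = 0.3, exact permutation test), and by -0.97 after subtraction, with Ank3 at 1.49 times the background. Slc4a1 to Slc4a2 differed by -0.24 and Epb41 to Epb41l2 by 0.14 (p = 0.8 and p = 0.7, exact permutation tests).

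**Figure D4:**
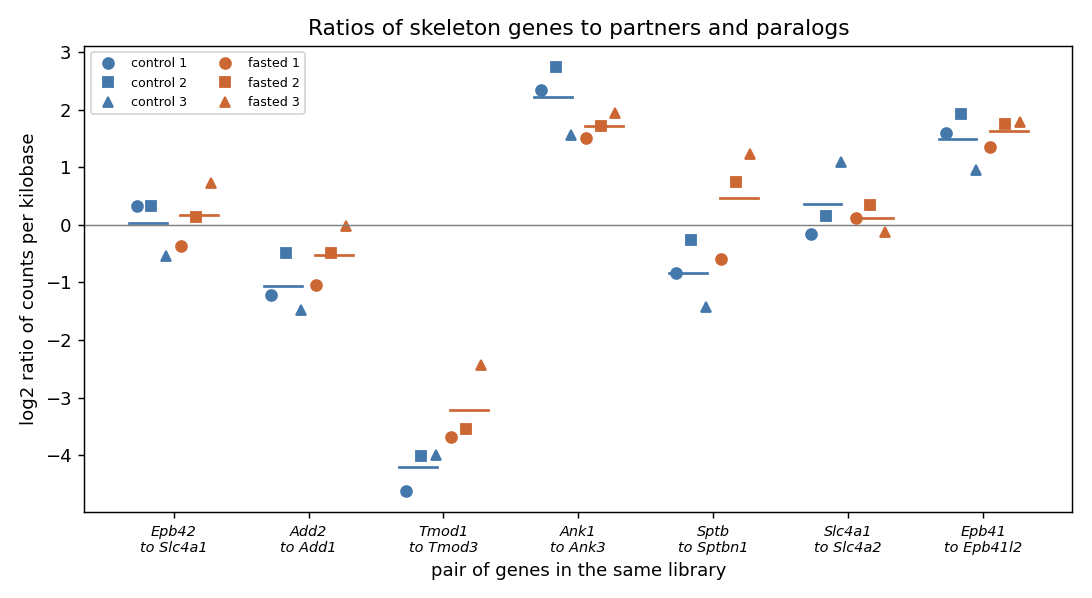
Log2 ratio of counts per kilobase between a membrane skeleton gene and its partner or paralog in the same library, for 7 pairs. Points are libraries (blue control, orange fasted) and short lines group means; only Tmod1 to Tmod3, between -4.62 and -2.43, has groups that do not overlap.

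A list of 24 other red cell membrane genes holds transporters and blood group proteins, and also skeleton genes shared with other cells (Actb, Tpm1, Tpm3, Add1 and Tmod3). Of the 24, 18 had a mean level above that of Add2, and their median level was 33.03 RPKM against 3.58 RPKM for the 8 members. Aqp1, the water channel of the red cell, had 443, 327 and 178 RPKM in control and 226, 242 and 289 RPKM in fasted libraries. Rhd, of the Rhesus complex, had 136, 131 and 74.5 RPKM in control and 78.3, 117 and 139.97 RPKM in fasted libraries. Both were lowest in control library 3 and next lowest in fasted library 1, the order seen for Add2 and Sptb. Tpm3, a tropomyosin of the actin filaments, had another order, with 132, 118 and 191 RPKM in the control and 97.1, 109.7 and 44.96 RPKM in the fasted libraries, and was highest in control library 3.

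In the TMM fit 0 of 23 tested genes of that list passed as higher and 1 as lower. These shares were near the 1.15% and 3.82% of all genes. Of the 23 values 19 were below 0, with a median log2 fold change of -0.30. The 10637 genes that reached 5 times the background, which include 22 of the list, had a median of -0.50 in that fit. With library totals 16 of 23 were above 0 with a median of 0.21, and 2 passed as higher and 1 as lower, where 11.6% and 0.819% of all genes did. The gene that fell was Actb, the cytoplasmic actin of most cells and of the skeleton's short filaments, at -0.96 (SE 0.25, edgeR adjusted p 0.0408), -0.49 with library totals (edgeR adjusted p 0.0329) and -0.46 in the restricted fit (edgeR adjusted p 0.212). Piezo1, a stretch-gated channel named after its values were seen, was among those that passed as higher with library totals (0.68, edgeR adjusted p 0.0366) and was 0.17 in the TMM fit. Icam4 was listed at 0 counts in every library and was not tested.

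The 16 relatives of the members found in other cells include Add1 and Tmod3, which are also on the red cell membrane list above. Of the 16, 0 passed as higher and 2 as lower, with a median of -0.13. Of all genes 1.15% passed as higher and 3.82% as lower. These were Sptbn1 at -0.93 (SE 0.24, edgeR adjusted p 0.0385) and Add3, the gamma adducin, at -0.95 (SE 0.24, edgeR adjusted p 0.0384). Both were -0.43 in the restricted fit, with edgeR adjusted p of 0.264 and 0.210. With library totals both stayed below 0, at -0.45 and -0.46, and neither passed. The list turned with this scaling: its median was 0.35, 12 of 16 values were above 0, and 2 passed as higher and 0 as lower. These were the ankyrins of other tissues, Ank3 (1.23, edgeR adjusted p 0.0316) and Ank2 (1.03, edgeR adjusted p 0.0317), Ank2 being named after its values were seen. Ank3 stood at 1.49 times the background and Ank2 at 1.42 times. Under library totals the 25871 genes below 5 times the background had a median of 1.01. Of all genes, 11.6% then passed as higher and 0.819% as lower.

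Of 12 regulators of erythroid genes, 0 passed as higher and 1 as lower, with a median of -0.47 (0.03 with library totals). Of all genes 1.15% passed as higher and 3.82% as lower. The 10637 genes that reached 5 times the background, 11 of the 12 among them, had a median of -0.50 (-0.0078 with library totals). Nfe2, a factor of globin and platelet genes, had 614, 270.4 and 200.4 CPM in control and 163, 138 and 134 CPM in fasted libraries. The log2 fold change of Nfe2 came to -1.32 (SE 0.32, edgeR adjusted p 0.0405) and -0.73 in the restricted fit (edgeR adjusted p 0.242). Gfi1b had -0.71, Gata1 -0.78 and Lmo2 -0.46 in the TMM fit, with edgeR adjusted p of 0.359, 0.118 and 0.176. Klf1, which drives many red cell membrane genes, had 858, 585 and 225 CPM in control and 296, 354 and 425 CPM in fasted libraries, with a log2 fold change of -0.63 (SE 0.37, edgeR adjusted p 0.267). Its control libraries alone spanned the whole range of the fasted ones, and control library 3, lowest for Add2 and Sptb, was lowest for Klf1 as well. That library was also the lowest for Gata1 (149 CPM) and Gfi1b (104 CPM), though not for Lmo2 or Nfe2, so this was not particular to Klf1. Klf1 was highest in control library 1, where neither Add2 nor Sptb was highest.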

How the data were processed

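The authors deposited 1 table of raw read counts per gene with the exonic length of each gene. HISAT2 2.2.1, featureCounts 2.0.1 and GRCm38 are named, per the submitters' processing notes; the strand setting, annotation release and read filters are not given in the sources used here. The labels' extraction text describes ground tissue and not sorted cells. Of 55487 identifiers, 54435 matched GENCODE M21 with their version, all with the deposited length. Members and gene lists were chosen with earlier results of these data known.

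Genes passing filterByExpr were scaled by TMM and tested with edgeR 4.0.16 (glmQLFit and glmQLFTest, robust, group as the only term) in R 4.3.3, with Benjamini-Hochberg adjustment over all 36508 genes and a threshold of 0.05. The fit was also run on simulated counts, with larger fold changes than any member had. Apart from the changed genes, all simulated libraries shared 1 composition and background. That run therefore does not bear on the group differences in background and scaling described above. Background came from 1423 odorant and vomeronasal receptor genes, as summed counts over summed length per library. The split at 5 times used the mean over all libraries. Subtraction took that rate times the length from each count. Ratios used counts per kilobase with 0.5 counts added and exact permutation tests in scipy 1.17.1. Genes named were the 8 members, list members that passed or were among the 4 highest by RPKM, ratio partners, and the 5 nearest in pattern. Alternatives were RLE factors, library totals, TMM from genes that reached 5 times the background, the restricted fit, no filter, subtraction, DESeq2 1.42.0, a replicate block and leaving out each library; subtraction over all genes was added after seeing the data. Same-numbered control and fasted libraries had correlations of deviations of -0.17, 0.14 and -0.31, so the numbers were not taken as pairs. 1 gene of the wider lists, with its ratio, is not reported here.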

Additional observations from a re-analysis of the deposited data

How the results depend on the processing

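The count of membrane skeleton genes passing the test was 0 in the edgeR fit and in 13 of 15 alternatives, leaving out each of the 6 libraries included. In several of these few genes of any kind passed: 0 in the restricted and both subtracted fits, and 7 of 38327 without fasted library 3, so a count of 0 there is a floor. It was 2 with library totals and 2 with TMM factors taken from the genes that reached 5 times the background. The count whose groups did not overlap was 0, and became 3 with library totals, 3 with those TMM factors, 1 in the restricted fit and 0 to 2 with 1 library left out. The members' median minus that of genes that reached 5 times the background kept its sign in all 14 alternatives, between 0.43 (without fasted library 3) and 0.82 (without control library 2). A common scaling factor cancels in this difference, so the alternatives that only change the scaling could hardly move it. Outside the restricted fits it also sets the members below 5 times the background against the higher stratum. Of the wider lists 4 of 49 genes passed, all 4 as lower, against 7 lower with RLE factors, 9 lower with no filter and 13 lower with DESeq2. Over all 36508 genes, 1393 passed as lower in the edgeR fit, 2672 with RLE factors and 5302 with DESeq2. With no filter 2218 of 52922 did. The direction turned with library totals (4 higher and 1 lower) and the TMM factors above (7, of which 6 higher and 1 lower), and the count was 0 in the restricted fit with or without subtraction. With 1 library left out it was 0 to 15, namely 0 without control library 2 and without fasted library 1 or 3, 2 without control library 1, 5 without fasted library 2 and 15 without control library 3. Calls over all genes moved too. Library totals gave 4224 higher and 299 lower, and those TMM factors 4990 and 255. Without control library 3, 1476 of 37917 genes passed as higher and 3903 as lower, against 12 and 93 of 38494 without fasted library 1.

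The log2 fold change of Sptb, Dmtn and Tmod1 kept its sign in every alternative run, but not its size: with 1 library left out it ranged from 0.087 to 0.62, 0.12 to 0.49 and 0.053 to 0.42. Slc4a1 became 0.33 with library totals and 0.35 with the TMM factors above. Epb41 became 0.30, 0.33, 0.33 in the restricted fit, and 0.34 and 0.041 after subtraction over the restricted and over all genes. Epb42 became -0.16 with RLE factors and with DESeq2, and Add2 -0.17 with both and -0.00014 with no filter. With 1 library left out, Epb41 ranged from -0.40 to -0.096, Ank1 from -0.0057 to 0.43, Slc4a1 from -0.27 to 0.038, Epb42 from -0.17 to 0.22 and Add2 from -0.29 to 0.37. The differences in log2 ratio are also given as ranges with 1 library left out. They ran from -0.15 to 0.40 for Epb42 to Slc4a1 and from -0.50 to 0.12 for Slc4a1 to Slc4a2. The range was -0.13 to 0.36 for Epb41 to Epb41l2, 0.60 to 1.22 for Tmod1 to Tmod3 and 0.29 to 0.83 for Add2 to Add1. It was -0.82 to -0.24 for Ank1 to Ank3 and 0.92 to 1.82 for Sptb to Sptbn1. With the background subtracted from both genes, the differences were 0.19 for Tmod1 to Tmod3 and -0.97 for Ank1 to Ank3. Both lay outside the ranges given. The causes of these changes were not tested.

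With the replicate number as a block, the paired fit passed 0 of the 8 members, changed no member's call, passed 0 genes of the wider lists and, over all genes, 14 higher and 132 lower. Slc4a1, Epb42, Tmod1 and Dmtn gave no value in the restricted fits, being below 5 times the background. Tmod1, at 62 to 128 counts, is limited by both depth and background.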
